A study of Mus musculus with 6 samples.

Results

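The 9 LSM genes described here are Lsm1, Lsm2, Lsm3, Lsm4, Lsm5, Lsm6, Lsm7, Lsm8 and Lsm10, taken by gene identifier from a table of 20254 genes. Lsm7 was chosen because its values in the 5-month hearts stood far above those of the 14-month hearts, and the other 8 as members of the same protein family. All 9 reached a normalized value of 10 in at least 3 libraries and so were among the 13823 genes tested. The hearts came from C57BL/6 mice, 3 wild-type (WT) and 3 labelled as Trdn-as knockout (KO), a non-coding RNA gene on the strand opposite to Trdn. The hearts named WT-1, WT-2, KO-1 and KO-2 were 14 months old and those named WT-3 and KO-3 were 5 months old, by label. The labels do not say how the knockout was made or whether hearts of 1 genotype shared a litter, and Trdn-as itself was not analysed here.

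LSM proteins are small RNA-binding proteins that share the fold of the Sm proteins of the spliceosome and close into rings around the 3′ end of an RNA. The ring that contains Lsm1 sits in the cytoplasm, binds shortened poly(A) tails and promotes removal of the mRNA cap. The ring that contains Lsm8 sits in the nucleus and holds the uridine tail of U6 small nuclear RNA, and both rings share Lsm2, Lsm3, Lsm4, Lsm5, Lsm6 and Lsm7. Lsm10 belongs to a different ring, that of the U7 small nuclear ribonucleoprotein, which takes part in 3′ end formation of histone mRNA.

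The coding sequence of Lsm7 is shown first because the values of Lsm7 cannot be read without it. It runs over 4 exons on the minus strand of chr10:80852958-80855186 (GRCm38, GENCODE M21) and holds 312 bases with the stop codon, or 103 codons without it. Bases 13 to 312 are printed. Capitals mark the bases that are identical to the processed pseudogene Gm10146, and the stop codon is in lower case.
Lsm7 coding sequence, bases 13 to 312: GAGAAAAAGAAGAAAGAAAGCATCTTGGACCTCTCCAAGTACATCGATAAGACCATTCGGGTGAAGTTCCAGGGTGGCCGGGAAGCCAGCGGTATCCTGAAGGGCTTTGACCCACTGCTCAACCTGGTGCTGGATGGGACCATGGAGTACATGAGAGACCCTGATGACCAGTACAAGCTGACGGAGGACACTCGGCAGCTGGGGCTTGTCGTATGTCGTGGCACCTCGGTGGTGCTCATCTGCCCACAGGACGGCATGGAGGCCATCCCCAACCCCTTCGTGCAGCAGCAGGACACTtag
Gm10146 lies at chr10:78393320-78393628 on the plus strand, 2.46 Mb from Lsm7. Its 309 bases matched bases 1 to 309 of the Lsm7 coding sequence with 0 mismatches. Each of the 279 stretches of 31 bases in the pseudogene occurs in Lsm7, so a read that lies wholly inside this stretch fits both genes equally well. How the deposited values divide such reads between the copies is not given in the sources used here, and the division is uncertain in every library.

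The 6 libraries differed in more than genotype and age. The normalized totals ranged from 19.8 to 23.5 in units of 1e6, and 16735 to 17722 genes were above 0. Mitochondrially encoded genes took 44.3 to 49.4% of the total at 14 months and 39.97 and 41.6% at 5 months. Markers of cardiomyocytes (8 of 8 genes above 0 in every library) summed to 582916 to 672211 at 14 months and to 666650 in KO-3 and 1032935 in WT-3, where Myh6 alone made up 400427. The 8 markers went both ways, with Tnnt2, Tnni3, Ttn and Pln above and Ryr2 and Mybpc3 below all 14-month values in both 5-month hearts. Endothelial markers (6 of 6 above 0) summed to 11726 to 15007 at 14 months and to 10686 and 9074 at 5 months. These markers also went both ways, with Egfl7 above and Cdh5, Kdr and Tie1 below all 14-month values in both 5-month hearts. Neutrophil markers summed to 9.17 to 15.5 at 14 months and to 46.8 and 146.6 at 5 months. The 5-month sum came from S100a8 and S100a9 alone. The other 2 of the 4, Ngp and Camp, were listed at 0 in both 5-month hearts and at up to 0.917 at 14 months. Erythroid markers summed to 6782 to 66820 at 14 months and to 13770 in WT-3 and 2727 in KO-3. Adipocyte markers summed to 562, 462 and 780 in WT and to 1412, 2083 and 473 in KO. Each of the 5 adipocyte markers was higher in KO-1 and KO-2 than in WT-1 and WT-2. Lung markers summed to 525 in KO-1 and to at most 5.99 elsewhere, with Sftpc, Scgb1a1 and Sftpa1 at 0 in some library. Scgb1a1 alone made up 518 of the KO-1 sum, while Sftpa1 stood at 6.57 and Sftpc at 0.842 in that library. Y-linked genes summed to 213 and 273 in both libraries numbered 2 and to 2652 to 4775 in the other 4. Their part in the LSM values was not tested. In such whole-tissue samples fewer cells of a type and less RNA per cell cannot be told apart. Trdn, which encodes a protein of the calcium release unit, stood at 5702, 5600 and 9104 in WT and at 3429, 3460 and 5606 in KO, and its genotype difference did not pass the threshold (-0.71 on the log2 scale, SE 0.10, limma adjusted p = 0.261).

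Lsm7 was high in both 5-month hearts and low in all hearts of 14 months. Its normalized value was 85.1 in WT-1 and 75.2 in WT-2 against 635 in WT-3, and 47.7 in KO-1 and 77.2 in KO-2 against 440 in KO-3. The groups did not overlap, and the lower 5-month value was several times the highest value at 14 months. The mean was 71.3 ± 16.3 (SD, n = 4) at 14 months and 537 ± 137 (SD, n = 2) at 5 months, a ratio of 7.54. On the log2(value + 1) scale the difference, 5 minus 14 months, was 2.91 (SE 0.22) with genotype as a covariate, which placed Lsm7 14th from the highest of the 13823 genes. It was 2.97 in WT and 2.84 in KO. Because Lsm7 was picked for this difference, these values are a description and carry no test.

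The pseudogene identical to its coding sequence had the opposite pattern. Gm10146 stood at 41.6, 49.6, 51.8 and 53.9 in WT-1, WT-2, KO-1 and KO-2 and was listed at 0 in WT-3 and KO-3. It made up 32.8 to 52.0% of the sum of both genes at 14 months and 0% at 5 months. The sum was 126.7 in WT-1, 124.8 in WT-2, 99.5 in KO-1 and 131 in KO-2 at 14 months, with a mean of 120.5 ± 14.3 (SD, n = 4). At 5 months the sum was that of Lsm7 alone, 635 in WT-3 and 440 in KO-3. The sums of the 2 ages also did not overlap. Their ratio was 4.46 in place of 7.54, and the log2 difference was 2.13 (SE 0.18) in place of 2.91, which would rank 38th from the highest. In KO-1, the library with the lowest Lsm7, the pseudogene took more than Lsm7 itself.

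**Figure D1:**
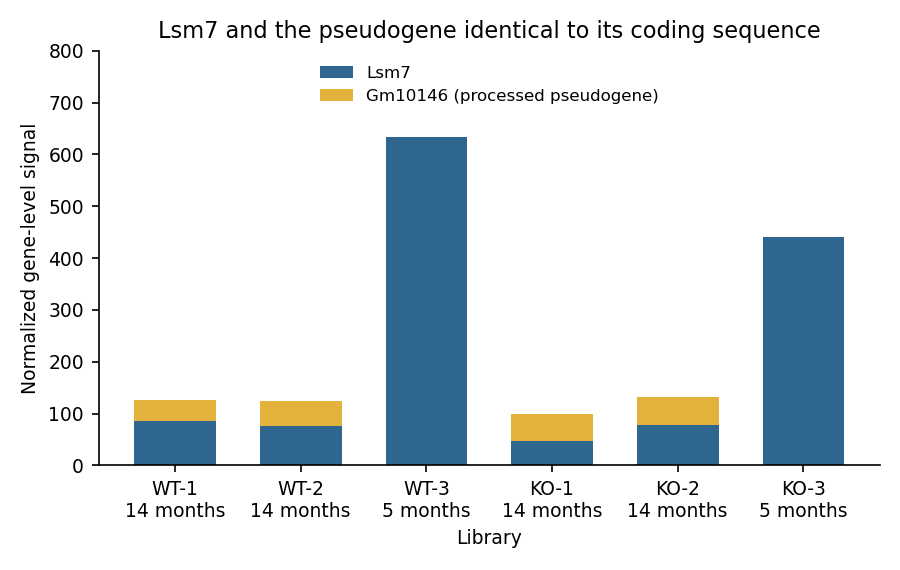
Normalized value of Lsm7 (blue) and of the processed pseudogene Gm10146 (yellow, stacked) in each library; the vertical axis is the deposited normalized signal and starts at 0. The 4 libraries of 14 months carry both (sums of 99.5 to 131), while WT-3 (635) and KO-3 (440) carry Lsm7 alone.

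Among the genes shared by both rings, Lsm5, Lsm4, Lsm3 and Lsm6 were also higher at 5 months. Lsm5 stood at 30.7, 27.1, 23.3 and 32.0 in WT-1, WT-2, KO-1 and KO-2 against 107 in WT-3 and 71.7 in KO-3. Both 5-month values lay above every 14-month value, with a ratio of means of 3.16 and a log2 difference of 1.61 (SE 0.28). Lsm4 stood at 258, 283, 297 and 274 at 14 months against 626 in WT-3 and 458 in KO-3, and its log2 difference was 0.94 (SE 0.16). Here too the ages did not overlap, and WT-3 was again above KO-3. Lsm3 stood at 259, 228, 239 and 236 at 14 months against 559 in WT-3 and 324 in KO-3, and its log2 difference was 0.82 (SE 0.19). Lsm6 stood at 200.1, 251, 175 and 217 at 14 months against 319.8 in WT-3 and 332 in KO-3, and its log2 difference was 0.64 (SE 0.17). Lsm6 was the one shared member with KO-3 above WT-3.

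Lsm2, which neighbours Lsm3 in the ring, went the other way. It stood at 130, 120, 117 and 166 in WT-1, WT-2, KO-1 and KO-2 against 107 in WT-3 and 48.1 in KO-3. Both 5-month values lay below all 14-month values, WT-3 narrowly and KO-3 far below them. The log2 difference was -0.87 (SE 0.31), made of -0.22 in WT and -1.52 in KO.

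The genes that tell the rings apart both stood higher at 5 months, Lsm8 by more than Lsm1 in the deposited values but not with the length and GC trends removed. Lsm8, specific to the nuclear ring, stood at 123, 116, 115 and 102 at 14 months against 315 in WT-3 and 294 in KO-3. The log2 difference of Lsm8 was 1.41 (SE 0.16), with 1.39 in WT and 1.43 in KO. Lsm1, specific to the cytoplasmic ring, stood at 99.3, 97.9, 83.7 and 101 at 14 months against 154 in WT-3 and 138 in KO-3, with a log2 difference of 0.61 (SE 0.18). Per kilobase of transcript the ratio of Lsm8 to Lsm1 was 4.07, 3.92, 4.54 and 3.35 at 14 months and 6.74 in WT-3 and 7.05 in KO-3. These ratios of levels did not overlap between the ages, but the transcripts differ in length (807 and 2663 bases). Their size depends on the transcript chosen for each gene. With the trends removed the log2 age difference was 0.44 for Lsm8 and 0.55 for Lsm1, and neither was past the threshold. Lsm10, of the U7 particle, stood at 108, 116, 87.4 and 115 at 14 months against 168 in WT-3 and 118 in KO-3. KO-3 exceeded the highest 14-month value of Lsm10 only narrowly, and the log2 difference was 0.41 (SE 0.20).

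**Figure D2:**
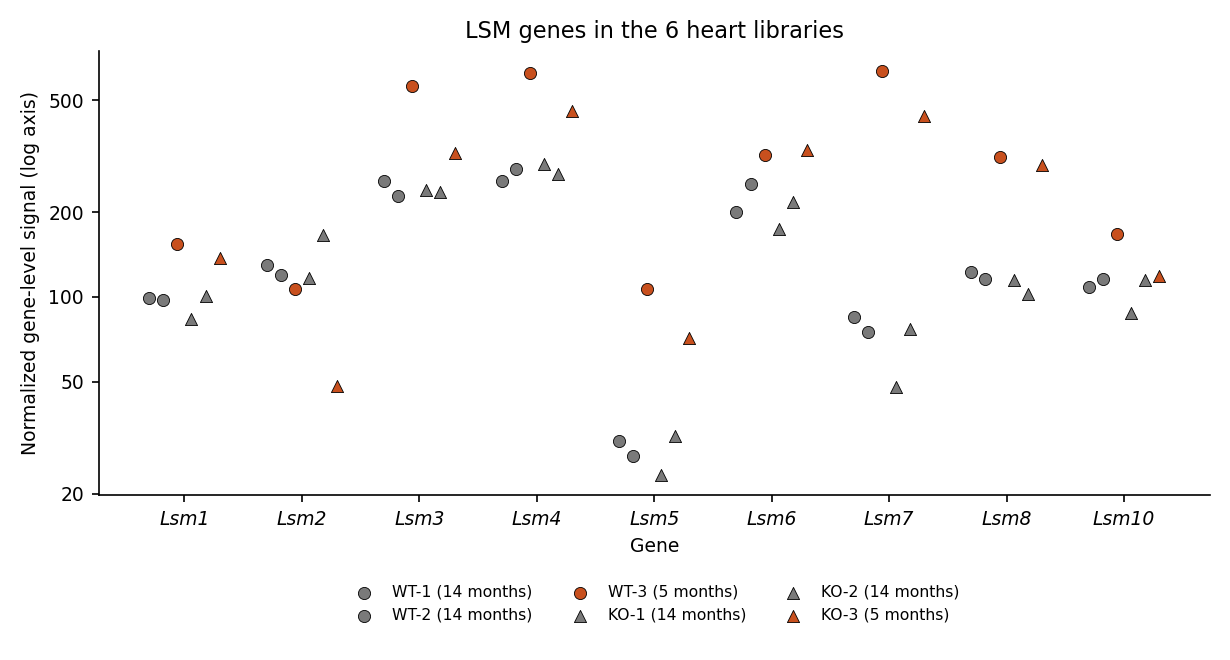
Normalized value (log axis) of each of the 9 LSM genes in the 6 libraries, with 14-month and 5-month libraries and the genotypes marked separately. In 8 genes both 5-month points lie above all 14-month points, by far the most in Lsm7, and in Lsm2 both lie below.

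In 8 of the 9 genes both 5-month libraries lay above all 4 of 14 months, and in 1, Lsm2, below them; among all genes tested 25.0% lay above and 25.7% below. By the limma fit 7 of 9 were past an adjusted p of 0.05 in the direction of higher values at 5 months, all but Lsm2 and Lsm10, and 0 in the direction of lower values. Over all genes tested 33.7% were called, 16.0% higher and 17.7% lower. Since Lsm7 was chosen on this contrast, nothing is read from these counts. The median log2 difference of the 9 was 0.82 and that of all genes tested was -0.02. Ranked from the highest, Lsm5 was 125th, Lsm8 192nd, Lsm4 756th, Lsm3 1102nd, Lsm6 1845th, Lsm1 2001st and Lsm10 3300th, while Lsm2 was 1499th from the lowest. Lsm7 made up 4.02 to 6.58% of the summed value of the 9 genes at 14 months and 21.2% in WT-3 and 19.8% in KO-3.

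**Figure D3:**
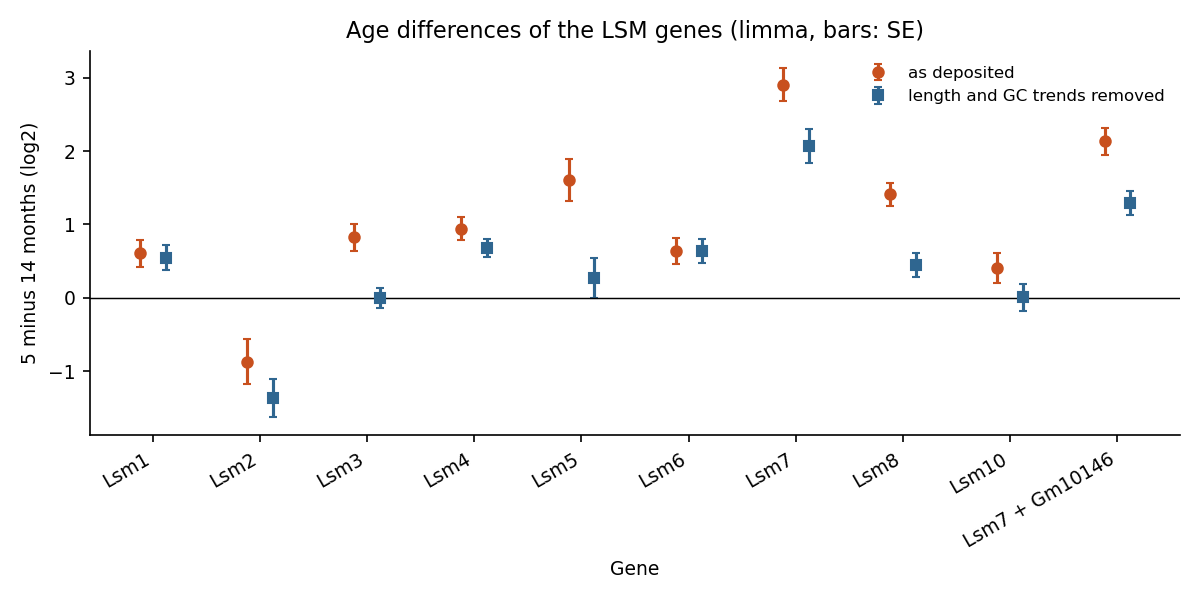
Log2 difference, 5 minus 14 months, for each LSM gene with its standard error, from the values as deposited and after removal of the trends on transcript length and GC content, with Lsm7 also shown with Gm10146 added. Lsm7 stays the highest in each case, from 2.91 down to 1.29 with both changes, and Lsm3 and Lsm10 lie at about 0 once the trends are removed.

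The age difference moved with transcript length over the whole table, and most LSM transcripts are short. Protein-coding genes with a principal transcript under 600 bases (136 genes) had a median log2 difference of 1.11, with quartiles of 0.48 and 1.55. The median was 0.68 from 600 to 1000 bases (599 genes), 0.28 from 1000 to 2000 (2677 genes), -0.08 from 2000 to 4000 (5438 genes) and -0.21 from 4000 bases on (4538 genes). Shorter classes had higher medians at each step. The principal transcripts of Lsm7 and Lsm5 have 468 and 494 bases. Those of Lsm3, Lsm8, Lsm2, Lsm4 and Lsm10 have 743, 807, 840, 925 and 943 bases, and those of Lsm1 and Lsm6 have 2663 and 3792. Lsm7 exceeded each of the other genes in the shortest class, Lsm5 lay near its upper quartile, and Lsm8, Lsm1 and Lsm6 lay above the quartile range of their own classes. Lsm2 lay below the range of its class.

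With the trend of each library on transcript length and GC content removed, the median of the family was lower and Lsm7 was still its highest member. The log2 difference of Lsm7 was 2.07 in place of 2.91 and ranked 23rd from the highest, and with Gm10146 added as well it was 1.29 (SE 0.17) and ranked 132nd. Lsm4, Lsm6 and Lsm1 stood at 0.68, 0.64 and 0.55, Lsm8 at 0.44 and Lsm5 at 0.27. Lsm10 stood at 0.01 and Lsm3 at -0.0015, and Lsm2 was lower than before at -1.36. The median of the 9 was 0.44, with -0.004 for all genes tested, and 4 of 9 were past the threshold in place of 7 (3 higher, 1 lower). Over all genes tested 23.3% were then past it, 11.6% higher and 11.7% lower, and nothing is read from the members' count, since Lsm7 was chosen on this contrast. Each genotype had 1 library of 5 months, so age and anything else that set both replicate 3 libraries apart cannot be told apart.

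**Figure D4:**
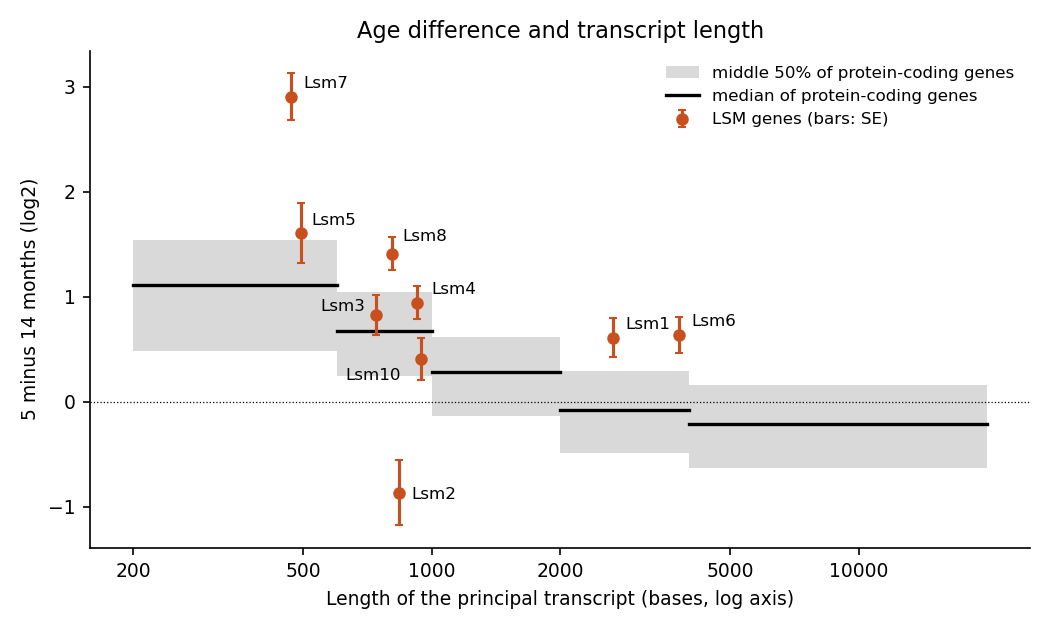
Log2 difference, 5 minus 14 months, against the length of the principal transcript in bases (log axis); points are LSM genes with their standard errors, black lines the medians of protein-coding genes in 5 length classes and grey boxes their middle 50%, with the outermost boxes drawn to arbitrary ends. Lsm7 (468 bases, 2.91) lies far above the box of the shortest class, and Lsm2 (840 bases, -0.87) lies below its own.

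The ring subunits differed widely in normalized value per kilobase of principal transcript, a level that depends on the transcript chosen. Annotated transcripts run from 343 to 2663 bases for Lsm1 and from 473 to 3792 for Lsm6. The longest was used for both genes, so their low levels are uncertain. At 14 months the means ran from Lsm3 at 324 (range 307 to 348) and Lsm4 at 301 (279 to 321) to Lsm1 at 35.8 (31.4 to 37.8). Lsm3 and Lsm4 overlapped each other and lay above all others. Lsm2 at 159 (140 to 198), Lsm7 at 152 (102 to 182) and Lsm8 at 141 (127 to 152) overlapped, and Lsm10 at 113 (92.7 to 123) overlapped only Lsm7 of these. Lsm5 at 57.3 (47.2 to 64.9) and Lsm6 at 55.6 (46.1 to 66.3) could not be ordered beyond their spread. With Gm10146 added, Lsm7 stood at 257 (213 to 280), between Lsm2 and Lsm4, and its highest value just overlapped the lowest of Lsm4. At 5 months the order opened with Lsm7 at 1148 (941 and 1356), followed by Lsm3 at 594 (436 and 752) and Lsm4 at 586 (496 and 676), and both Lsm7 values lay above those of every other member. Per kilobase the ratio of Lsm7 to Lsm2, which sit in the same rings, was 0.731 to 1.18 at 14 months, 10.6 in WT-3 and 16.4 in KO-3. With Gm10146 added to Lsm7 it was 1.42 to 1.87 at 14 months and stayed at 10.6 in WT-3 and 16.4 in KO-3.

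Sequence shared with other genes bears on further members. Of the 31-base stretches of the principal transcript, 65.1% in Lsm7, 46.3% in Lsm5 and 20.3% in Lsm3 also occur in another annotated gene, against 6.86% in Lsm6, 1.71% in Lsm1 and 0% in Lsm2, Lsm4, Lsm8 and Lsm10. The stretches of Lsm5 occur in pseudogenes led by Gm7846, which were not analysed here, so a division of reads like that of Lsm7 could not be looked at. The values of Lsm7, Lsm5 and Lsm3 are therefore uncertain to that extent, and those of Lsm8 and Lsm4 less so.

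None of the 9 LSM genes differed between WT and KO past the threshold in the limma fit with age as a covariate. By that fit 0 genes of the whole table were called (0.0%), and 841 genes (6.08%), 0 of them LSM genes, had an unadjusted p under 0.05. Lsm7 had the largest fitted difference of the 9, -0.44 on the log2 scale (SE 0.21, 95% interval -0.92 to 0.05, limma adjusted p = 0.745, range over the alternatives 0.743 to 1.0). In replicate 1 Lsm7 was lower in KO by 0.82 and in replicate 3 by 0.53 on the log2 scale, while in replicate 2 the KO value was higher by 0.04. An exact two-sided permutation test of the 6 values, which took no account of age, gave p = 0.6. In general 3 against 3 cannot go below 0.1, but that floor was out of reach here. Each genotype holds a younger heart with a far higher Lsm7 value. Any relabeling with both younger hearts in the same group therefore gives a larger difference than the observed one. The test cannot decide on genotype, and nothing is read from it. With Gm10146 added the difference was -0.27 (SE 0.17, 95% interval -0.66 to 0.12, limma adjusted p = 0.745), and the replicate 1 value was -0.35.

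The fitted genotype differences of the other 8 lay between -0.28 (Lsm3) and -0.10 (Lsm4). All 9 were below 0, where 53.9% of all genes tested were, and the median of the 9 was -0.24 against -0.02 for all genes tested. With the length and GC trends removed the median of the 9 LSM genes was -0.10, Lsm7 stood at -0.24 and Lsm3 at -0.09, and 7 of the 9 were below 0, with Lsm4 at 0.0050 and Lsm8 at 0.0477. No LSM gene had all KO libraries below all WT libraries, an order seen in 2.89% of genes tested. The intervals remained wide. That of Lsm2 ran from -0.94 to 0.40 and that of Lsm3 from -0.70 to 0.13, so a change of either sign is compatible with the spread of 6 hearts. The 5-month pair held the lowest of the 3 differences for 5 of the genes. In replicate 3 the KO minus WT difference was -1.14 for Lsm2, -0.79 for Lsm3, -0.57 for Lsm5, -0.50 for Lsm10 and -0.45 for Lsm4, and it was above 0 for Lsm6 alone at 0.06. Over all protein-coding genes that difference also moved with length, from a median of -0.53 under 600 bases to 0.16 from 4000 bases on, and most LSM transcripts are short. The fitted genotype difference had medians of -0.22 under 600 bases and -0.19 from 600 to 1000 bases, near the LSM median. At 14 months the differences of Lsm1, Lsm2, Lsm3, Lsm4, Lsm5 and Lsm7 had opposite signs in replicates 1 and 2.

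**Figure D5:**
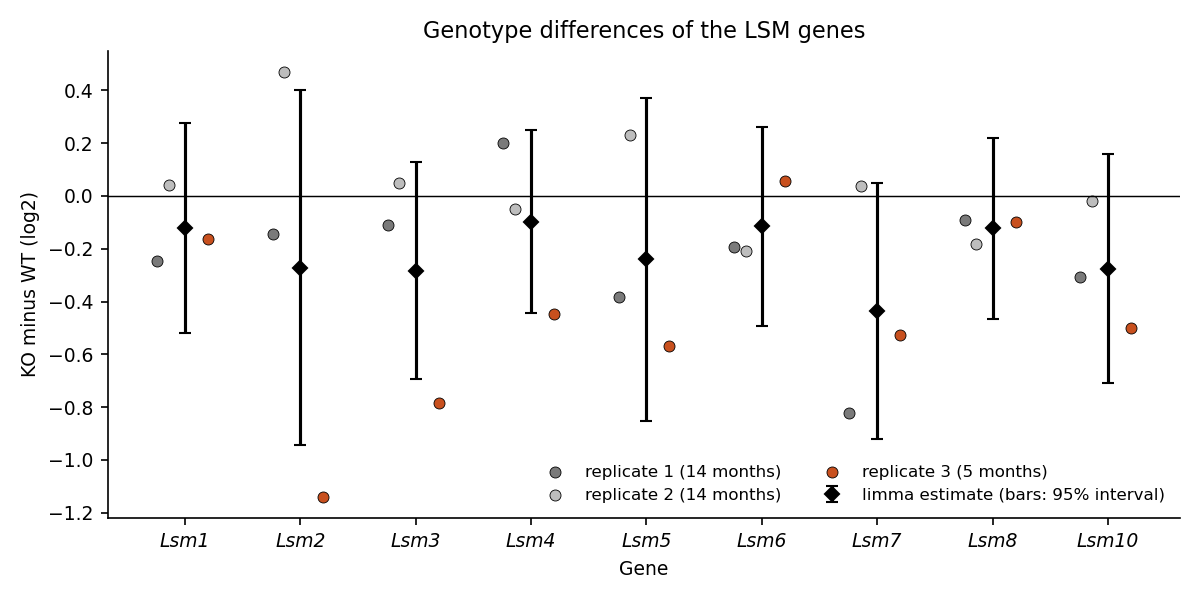
KO minus WT log2 difference of each LSM gene in replicates 1, 2 (14 months) and 3 (5 months), with the fitted difference and its 95% interval as a bar. The replicate 3 points of Lsm2 (-1.14) and Lsm3 (-0.79) lie lowest for their genes, and the fitted values of all 9 lie between -0.44 and -0.10.

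The interaction of genotype and age asks whether the age difference was unequal in KO and WT. In the limma fit it passed the threshold in 0 of the 9 LSM genes and in 2.08% of all genes tested. Without adjustment 3 of the 9, Lsm2, Lsm3 and Lsm4, had a p under 0.05, as did 23.2% of all genes tested. The size was largest for Lsm2 at -1.30 (SE 0.39, limma adjusted p = 0.116), followed by Lsm3 at -0.75 (SE 0.23, limma adjusted p = 0.119) and Lsm4 at -0.52 (SE 0.22, limma adjusted p = 0.210). For Lsm7 it was -0.13 (SE 0.43, limma adjusted p = 0.882). An unequal age difference was thus not detected in any LSM gene at the threshold, with 1 library per genotype at 5 months.

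The start of Lsm7 lies 65 bases from that of Sppl2b, which encodes an intramembrane protease and is read from the other strand. The stretch between both starts is shown because it separates a gene with a large age difference from one without a called difference. It is chr10:80855210-80855274 on the minus strand of GRCm38.p6 (RefSeq), and capitals mark matches to the GC box GGGCGG, searched on both strands. Upstream stretches of Lsm8 (chr6:18848385-18848578, plus strand), Lsm5 (chr6:56704711-56704949, minus strand) and Lsm2 (chr17:34981604-34981853, plus strand) follow, with matches to the GC box, the NRF1 motif GCATGCGC, the ETS motif CCGGAAG and the CCAAT box in capitals. The first 2 are of genes higher at 5 months and the last is of the gene that was lower.
Lsm7 to Sppl2b: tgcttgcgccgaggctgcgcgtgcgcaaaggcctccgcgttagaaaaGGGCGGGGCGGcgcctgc
Lsm8 upstream: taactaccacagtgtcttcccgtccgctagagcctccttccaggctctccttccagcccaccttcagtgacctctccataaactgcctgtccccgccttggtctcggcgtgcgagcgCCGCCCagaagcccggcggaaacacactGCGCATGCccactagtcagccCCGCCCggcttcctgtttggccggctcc
Lsm5 upstream: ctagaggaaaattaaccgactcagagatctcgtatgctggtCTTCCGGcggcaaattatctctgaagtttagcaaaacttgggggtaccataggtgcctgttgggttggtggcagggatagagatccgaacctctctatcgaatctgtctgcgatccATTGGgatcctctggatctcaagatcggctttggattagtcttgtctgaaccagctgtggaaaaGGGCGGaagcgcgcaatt
Lsm2 upstream: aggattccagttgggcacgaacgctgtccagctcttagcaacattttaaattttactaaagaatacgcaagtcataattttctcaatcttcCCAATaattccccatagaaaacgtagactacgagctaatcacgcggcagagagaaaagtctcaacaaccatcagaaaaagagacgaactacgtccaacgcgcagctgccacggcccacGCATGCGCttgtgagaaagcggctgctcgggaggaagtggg
RefSeq promoters were found for 7 of the 9 genes. In the 250 bases before the start the GC box occurred in Lsm3, Lsm5, Lsm7 and Lsm8 and in 32.9% of all 27025 promoters. The 2 GC boxes of Lsm7 overlap. The NRF1 motif occurred in Lsm2, Lsm8 and Lsm10 and in 2.32% of promoters, the ETS motif in Lsm5 and in 7.05%, and the CCAAT box in Lsm2, Lsm5 and Lsm10 and in 34.5%. The E-box CACGTG (6.05% of promoters) and TATAAA (13.0%) occurred in none of the 7. No motif set Lsm2, which was lower at 5 months, apart from Lsm8 and Lsm10, which were higher.

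Sppl2b stood at 183, 180, 200.2 and 176 at 14 months against 139 in WT-3 and 208 in KO-3. The 5-month values lay on either side of the others, and the age difference was -0.12 (SE 0.18, limma adjusted p = 0.645). The partners of 2 other LSM genes also had no age difference past the threshold. Bag4, whose start adjoins that of Lsm1, had an age difference of -0.32 (SE 0.18). Both 5-month values of Bag4 lay below all 14-month values, while those of Lsm1 lay above. Xpc, a DNA repair gene 39 bases from the start of Lsm3, had an age difference of 0.07 (SE 0.15). Of the further tested genes nearest to Lsm7, Oaz1 at 23530 bases and Timm13 at 44240 bases had age differences of 0.92 and 1.21, while Lingo3 at 8781 bases and Sf3a2 at 47896 bases had -1.15 and -1.71. Lmnb2 at 45993 bases had -0.12 (SE 0.25) and was not called. Over the alternatives, removal of the length and GC trends among them, Oaz1 ranged from 0.64 to 1.21 and Timm13 from 0.83 to 1.59. Sf3a2 ranged from -1.87 to -1.34 and Lingo3 from -1.51 to -0.65, and Lingo3 lost its call in some alternatives. Genes next to Lsm7 thus differed in both directions.

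The 5 genes with values most like those of Lsm7 over the 6 libraries were Hist1h4h, Cox8b, Ddc, Cox6c and Rps27l. Likeness was the root mean square distance of log2 values centred on each gene's mean, which was 0.143 for Hist1h4h and 0.302 to 0.347 for the others. Hist1h4h, a histone H4 gene of a family of near-identical copies and so uncertain in value, had a mean of 55.0 at 14 months and 346 at 5 months. Cox8b and Cox6c, subunits of mitochondrial cytochrome c oxidase, had means of 2478 and 3772 at 14 months and 13577 and 19064 at 5 months. The nearest LSM gene was Lsm5 at rank 66, followed by Lsm8 at rank 153, and Lsm2 was at rank 11993. With 4 libraries of 1 age and 2 of the other, such likeness weighs mainly the difference between the ages. It was taken without removal of the length and GC trends. The principal transcripts of Hist1h4h, Cox8b, Cox6c and Rps27l are short at 470, 360, 738 and 499 bases, while that of Ddc has 2018. The part of transcript length in this likeness was not tested.

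The Sm proteins, which form the ring of the spliceosomal U1, U2, U4 and U5 particles, had a median age difference of the same sign as the LSM genes, which was lost with the length and GC trends removed. Of 8 tested, 4 were called higher at 5 months (Snrpd2, Snrpe, Snrpg and Snrpf) and 1 lower (Snrpd3), with a median log2 age difference of 0.64. Beside these and the following counts stand 16.0% called higher and 17.7% lower over all genes tested, or 11.6% and 11.7% with the trends removed. With the trends removed the median of the Sm genes was -0.01, with 1 called higher (Snrpd2) and 2 lower (Snrpd3 and Snrpd1). Snrpe stood at 216, 215, 159 and 168 at 14 months against 513 in WT-3 and 423 in KO-3, a difference of 1.31 (SE 0.14, limma adjusted p = 0.000708). Snrpd2 differed by 1.58 (SE 0.17), and Snrpd3, whose transcript is long at 3036 bases, by -1.21 (SE 0.19). Of the 5 other LSM-domain genes, Naa38, which encodes an auxiliary subunit of an N-terminal acetyltransferase, was called higher at 1.44 (SE 0.17), and Lsm12 and Lsm14b were called lower at -0.76 and -0.60. Lsm11, the U7 partner of Lsm10, stood at -0.16 and was not called. The called genes of this paragraph that the rule for named genes does not cover, such as Snrpd3 and Lsm12, were chosen after their values were seen.

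The pathways that the rings serve showed no single direction, with 16.0% of all genes tested called higher and 17.7% lower. Among decapping factors, with which the cytoplasmic ring works, 2 of 13 were called higher at 5 months (Ddx6 and Pnrc2) and 4 lower (Patl1, Pnrc1, Edc4 and Dcp1a). Patl1, the scaffold that binds the cytoplasmic ring, stood at 802, 675, 747 and 826 at 14 months against 379 in WT-3 and 403 in KO-3, a log2 difference of -0.96 (SE 0.13, limma adjusted p = 0.00159). Patl1 and Lsm1 thus had opposite signs. Among 18 deadenylation genes 1 was called higher and 5 lower, led by Cnot3 at -1.27 (SE 0.26). Among 15 tested exosome genes, which encode the machine that degrades RNA from its 3′ end, 8 were called higher and 0 lower, led by Exosc3 at 1.40 (SE 0.23). With the length and GC trends removed, where 11.6% of all genes tested were called higher and 11.7% lower, 2 of the 8 exosome calls were left (Exosc3 and Exosc7), and the counts were 2 higher and 2 lower for decapping and 0 higher and 4 lower for deadenylation.

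For the nuclear ring, 5 of 21 genes of U6 and the tri-snRNP were called higher and 1 lower. The one called lower was Prpf8, the central protein of the spliceosome, at -1.004 (SE 0.12), with 2467, 2409, 2522 and 2623 at 14 months against 1322 in WT-3 and 1178 in KO-3. Of 14 genes of the SMN complex and Sm assembly 5 were called higher, among them Gemin6 at 0.94 (SE 0.25), and 1 lower, Wdr77. Of 7 tested genes of U7 and histone mRNA 1 was called higher, Eri1, a 3′ exonuclease, at 0.62 (SE 0.15). With the trends removed the counts were 1 higher and 1 lower for U6 and the tri-snRNP and 3 higher and 2 lower for SMN, Gemin6 lost its call, and Eri1 kept it. For genotype 0 of the 100 tested genes of these lists were called by limma. An unadjusted p under 0.05 was seen in 4 of the 100, where 6.08% of all genes tested had one. For the interaction 2 of the 100 were called, Tob1 and Exosc10, where 2.08% of all genes tested were, so nothing is read from this count. The medians of the lists for genotype lay between -0.24 (Sm proteins, 8 of 8 below 0) and 0.04 (other LSM-domain genes), beside -0.02 for all genes tested.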

How the data were processed

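RNA of whole hearts was sequenced in 6 libraries, grouped by title and age per the labels. Salmon 1.5.2 and the build mm10 are named in the submitters' processing notes, and their normalization is not given in the sources used here. Instead of counts, the authors deposited a normalized signal per gene, so the count test held ready for counts did not apply and sequencing depth is unknown. Lines without a gene identifier (108) were left out, and 20146 identifiers matched GENCODE M21. Genes with a value of 10 in at least 3 libraries (13823) were tested with limma 3.58.1 in R 4.3.3 on log2(value + 1) (trend and robust variances, Benjamini-Hochberg adjustment over all tested genes, threshold 0.05), which understates the change of low genes. Genotype was fitted with age as a covariate and the reverse (3 residual degrees of freedom), and the interaction with 2. The fit was tested on simulated data. P-values measure the spread between these hearts. Those of the interaction rest on the spread between the older hearts alone, since that fit matches the younger heart of each genotype exactly. They hold no spread between younger hearts of the same genotype. No pair of libraries had more than 5.27% of genes equal to within 1%.

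The members, lists and tests were chosen with earlier results of these data known. Named genes were every member, and from each list the most abundant gene, those with the largest genotype or age difference and any past the threshold for genotype or interaction, not all of them printed; further, the 5 genes most like Lsm7 and the 3 tested neighbours on each side. Alternatives covered pseudocount, filter, scaling, length and GC trends, left-out libraries, covariates, a replicate block and, chosen after seeing the data, the addition of Gm10146 to Lsm7. Replicate numbers are shared by genotypes without a stated pairing: same-number correlations of deviations from the genotype mean were 0.390, 0.383 and 0.617, but within 14 months 0.0147. Unlike-number pairs of 14 months gave 0.382 (WT-1 with KO-2) and 0.369 (WT-2 with KO-1), near the 0.390 and 0.383 of same numbers. Differences given by replicate are thus of hearts that share a number, not of known pairs.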

Additional observations from a re-analysis of the deposited data

Results flagged for a closer look

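In 45 genes the 4 libraries of 14 months were searched for 1 value far from the other 3 by Dixon's ratio, and 5 genes had one; chance gives about 1 in 20 such groups. Lsm1 was lowest in KO-1 at 83.7, where the others lay between 97.9 and 101. Gemin4, a gene of the SMN complex, was lowest in WT-2 at 10.6, where the others lay between 76.5 and 85.0, and its fitted genotype difference of 0.72 (SE 0.75) turned to -0.27 without that library. Snrpn, whose reads cannot be told from those of the overlapping Snurf, was highest in KO-1 at 1335 (others 960 to 1003). Cnot1, the scaffold of the main deadenylase complex, was lowest in WT-2 at 1765 (others 2211 to 2231), and Xpc was highest in WT-2 at 235 (others 208 to 212).

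By the interaction test 2 of the 100 tested genes of the lists were called, where 2.08% of all genes tested were, so nothing is read from the count. For Tob1, an antiproliferative adaptor of deadenylases, the interaction was -0.93 (SE 0.17, limma adjusted p = 0.0483). At 14 months Tob1 stood at 673 and 686 in the WT hearts, against 992 and 980 in the KO hearts. At 5 months it stood at 564 in WT-3 and 429 in KO-3. For Exosc10, a nuclear exosome nuclease, the interaction was -1.07 (SE 0.20, limma adjusted p = 0.0478), with 596, 668 and 780 in WT and 599, 644 and 364 in KO. Each rests on 1 library per genotype at 5 months. Tob1 lost the call in 10 of 11 alternatives (limma adjusted p from 0.0485 to 0.132) and Exosc10 in 9 of 11 (0.0356 to 0.142).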

How the results depend on the processing

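No LSM gene was called for genotype or interaction under any alternative run. Genes called for genotype over the table numbered 0, against 14 with the 14-month libraries alone and 0 to 5 with 1 library left out. With length and GC trends removed the genotype difference changed sign for Lsm4 (0.0050) and Lsm8 (0.0477), and the interaction for Lsm7 (0.34, or 0.0888 with Gm10146 added), Lsm1 (0.0515) and Lsm10 (0.0196). At 14 months alone the genotype difference was 0.16 for Lsm2 and 0.0762 for Lsm4. With 1 library left out it ranged from -0.54 to 0.16 for Lsm2, from -0.19 to 0.0762 for Lsm4 (both above 0 without either replicate 3) and from -0.20 to 0.0024 for Lsm6 (above 0 without WT replicate 2). It ranged from -0.27 to 1.47 for Gemin4, below 0 without WT replicate 2.

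The age difference of Lsm7 ranged from 2.77 to 3.06 with libraries left out, was 2.07 with trends removed, 2.13 with Gm10146 added and 1.29 with both. With trends removed 4 LSM genes passed in place of 7, Lsm3 stood at -0.0015, and Sppl2b (0.31) and Lmnb2 (0.32) changed sign. With 1 library left out Sppl2b ranged from -0.38 to 0.15 (above 0 without WT replicate 3) and Lmnb2 from -0.55 to 0.32 (above 0 without KO replicate 3). Genes called for age numbered 4663, against 3222 with trends removed, and 2078 and 3011 without replicates 1 or 2 of both genotypes.

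Interaction calls numbered 287, against 4 without a filter, 12 after quantile normalization, 106 with trends removed and 13 to 234 with 1 library left out, with 15 without WT replicate 1 and 13 without WT replicate 2. The interaction then ranged from -0.48 to 0.21 for Lsm7 and from -0.193 to 0.072 for Lsm1, both above 0 without KO replicate 2, and from -0.0461 to 0.12 for Lsm8, also below 0 at -0.0009 without WT replicate 1. With a replicate block the genotype difference of Lsm7 was -0.44 (limma adjusted p = 0.886), 0 genes were called for genotype and 359 for interaction, and Tob1 lost its call. The interaction could not be fitted without a replicate 3 library. Where no value bears on it, the cause was not tested. Depth is unknown, so the counting error of low genes such as Lsm5 could not be given.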

Other observations

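Gm10146 was 1 of 27 genes listed at 0 in both 5-month libraries and at 10 or more in all 4 of 14 months. Of these, 17 were processed pseudogenes and 8 protein-coding, where the table holds 1940 processed pseudogenes among 20254 genes. The opposite pattern was seen in 8 genes, of which 4 were processed pseudogenes. An exact 0 can also be a failed estimate, so these genes are given only as listed at 0.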
